A study of Mus musculus with 9 samples.

Results

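The genes described here are those of interleukin-1 beta (IL-1b), of its relative IL-18 and of the inflammasome, the protein complex that releases both: Il1b, Il18, Nlrp3, Nlrp1b, Pycard, Casp1, Gsdmd, Nek7 and Txnip. They were chosen by name, scarce ones included, and are 9 of the 55487 genes in the deposited tables. Each was matched through its Ensembl gene ID. The source was the spleen of wild-type (WT) C57BL6/J mice, from which naive CD4+ T cells, a resting helper population that has yet to meet antigen, gave poly(A) RNA for sequencing. The 9 libraries form 3 groups of 3. One group came from mice given neutralizing antibodies to IL-1b for 10 days, one from mice given MCC950 for 10 days, and one from mice with no treatment. MCC950 is a small molecule that blocks the NLRP3 sensor, while the antibody binds the secreted cytokine, and both act on proteins, whereas the values here are of mRNA. The labels give no age, sex, sort or gate, and no sham or vehicle treatment is named for the untreated mice. They also do not say that the libraries came from separate mice, so p-values reflect only how far these libraries differ among themselves, part or all of which may be technical.

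Depth ran from 14775375 to 16676626 expected counts with the antibody, from 16769960 to 18497827 with MCC950 and from 17335367 to 21394797 in untreated libraries. All 14 markers of naive CD4+ T cells were detected in each group, and their summed level was 8770 to 8830 CPM (counts scaled to library size with edgeR's TMM factors) with the antibody, 8390 to 8450 with MCC950 and 9050 to 9110 untreated. Other cells were traced as well. The sum of 19 neutrophil markers was 37.7 to 39.0 CPM in anti-IL-1b libraries, 18.8 to 21.3 with MCC950 and 1.34 to 2.08 untreated. The sum of 20 monocyte, macrophage and dendritic cell markers was 143 to 151 CPM in anti-IL-1b libraries, 158 to 163 with MCC950 and 131 to 136 untreated. Most of that sum was Ctss, and the other 19 markers summed to 26.2 to 30.4 CPM in anti-IL-1b libraries, 27.2 to 30.5 with MCC950 and 11.2 to 13.2 untreated. The sum of 21 B cell markers was 509 to 527 CPM in anti-IL-1b libraries, 495 to 522 with MCC950 and 326 to 348 untreated. Without Ighm, its most abundant gene, the other 20 summed to 126 to 134 CPM in anti-IL-1b libraries, 130 to 156 with MCC950 and 25.5 to 35.5 untreated. Of the 20 tested 18 passed as higher with the antibody and 19 with MCC950, beside 15.4% of all tested genes with the antibody and 17.7% with MCC950. Of these 20, 4 had fewer than 10 counts in every untreated library, so their direction was largely fixed by the filter on low counts. For 13 CD8 and NK cell markers the sum was 98.2 to 108 CPM in anti-IL-1b libraries, 102 to 107 with MCC950 and 68.0 to 75.6 untreated. Without Prf1, the most abundant, it was 64.1 to 69.9 CPM in anti-IL-1b libraries, 58.9 to 65.3 with MCC950 and 24.7 to 29.1 untreated. For 11 red cell and platelet markers the sum was 7.76 to 8.57 CPM in anti-IL-1b libraries, 9.77 to 12.1 with MCC950 and 2.13 to 3.60 untreated. Without Itga2b, the most abundant, it was 4.38 to 5.02 CPM in anti-IL-1b libraries, 6.13 to 10.3 with MCC950 and 0.122 to 0.452 untreated. A list of 18 genes of the immediate early and heat shock response, which cell handling is known to raise, summed to 6200 to 6400 CPM in anti-IL-1b libraries, 7110 to 7270 with MCC950 and 26500 to 26900 untreated. All 18 passed as lower with each agent, beside 18.5% of all tested genes with the antibody and 19.1% with MCC950. That list separates the untreated libraries from the others as cleanly as the treatment does, and its part in the results below was not tested.

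An inflammasome forms when a sensor such as NLRP3 or NLRP1B detects damage, infection or ion loss and gathers the adaptor ASC, which in turn gathers caspase-1. Caspase-1 cuts the precursors of IL-1b and IL-18 into their active forms and cuts gasdermin D, whose freed end makes pores in the cell membrane. Myeloid cells are the best known source of IL-1b, and they make its mRNA after a priming signal. T cells respond to IL-1b and IL-18 through surface receptors, and some inflammasome genes have been given roles inside T cells too.

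Promoters are shown for Il1b, Casp1 and Txnip, the members whose levels differed most between groups while passing the test in both comparisons with untreated libraries. Each is the RefSeq sequence (GRCm38.p6) of the 250 bases before the gene's start, read on the gene's own strand: chr2:129371140-129371389 on the minus strand for Il1b, chr9:5298267-5298516 on the plus strand for Casp1 and chr3:96557707-96557956 on the plus strand for Txnip. Capitals mark TATAAA in Il1b, CACGTG in Casp1, and, in Txnip, CCAAT (once in each orientation) followed by CACGAGNNNNNCACGAG.
Il1b: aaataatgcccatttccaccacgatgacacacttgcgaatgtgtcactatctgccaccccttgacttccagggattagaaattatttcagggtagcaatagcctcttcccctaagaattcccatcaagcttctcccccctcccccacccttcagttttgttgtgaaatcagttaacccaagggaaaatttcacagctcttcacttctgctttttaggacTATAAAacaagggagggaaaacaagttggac
Casp1: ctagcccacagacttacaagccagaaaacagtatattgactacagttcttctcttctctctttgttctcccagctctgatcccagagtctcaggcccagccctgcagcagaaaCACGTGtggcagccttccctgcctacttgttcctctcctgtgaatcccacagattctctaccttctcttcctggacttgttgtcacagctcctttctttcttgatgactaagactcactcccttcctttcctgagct
Txnip: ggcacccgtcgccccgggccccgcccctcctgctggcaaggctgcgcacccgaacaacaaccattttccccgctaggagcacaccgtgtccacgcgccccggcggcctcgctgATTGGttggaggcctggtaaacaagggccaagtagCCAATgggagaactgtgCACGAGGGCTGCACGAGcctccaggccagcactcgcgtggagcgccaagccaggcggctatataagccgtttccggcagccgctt

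The motifs searched, on both strands and without overlap between them in these windows, were the TATA box as TATAAA, the box named after its letters CCAAT, the E-box of the letters CACGTG, the spaced repeat CACGAGNNNNNCACGAG, a core bound by the myeloid factor PU.1 written GAGGAAG, and TGANTCA as the AP-1 site. The letters TATAAA start 31 bases before the start of Il1b and occur in 12.4% of the 32851 mouse promoter windows of this length. CACGTG starts 137 bases before the start of Casp1 and occurs in 6.02% of windows. In Txnip, CCAAT lies 137 and 102 bases before the start, a motif found in 33.8% of windows. The spaced CACGAG repeat starts 85 bases before the Txnip start and was found in 1 window, its own, which is 0.00304% of all. That repeat has the form of the carbohydrate response element, through which the glucose-responsive factors MondoA and ChREBP are known, in human cells, to drive TXNIP, and it was entered as a motif after the Txnip promoter had been read. A match is a run of letters, not a measured binding site. Of the 9 genes, 8 had promoter entries, with 10 windows between them. GAGGAAG, present in 10.6% of all windows, occurred in windows of Nlrp3, Nlrp1b and Pycard, and none of the 10 held TGANTCA, present in 6.75% of all windows.

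Of the 9 genes, 7 had enough reads for a test across genes, while Il18 and Nlrp3 fell below the filter on low counts. Il1b passed that filter through the treated libraries alone, which fixed its direction against untreated libraries in advance. With the antibody against untreated libraries, 5 of the 7 passed edgeR's quasi-likelihood test at an adjusted p of 0.05 (Benjamini-Hochberg over 13374 genes): Il1b and Pycard were higher, and Casp1, Nek7 and Txnip were lower. The share of all tested genes called in that comparison was 34.0%, with 15.4% higher and 18.5% lower. With MCC950 against untreated libraries the same 5 passed in the same directions, beside 36.8% of all tested genes, 17.7% higher and 19.1% lower. These comparisons share the untreated libraries, so their likeness is not an independent repeat. The median log2 fold change of the 7 tested members was 0.02 with the antibody and -0.23 with MCC950, against 0.00 with the antibody and 0.01 with MCC950 over all tested genes. Between the agents 2 of the 7 passed, Il1b and Casp1, both higher with the antibody than with MCC950, beside 13.2% of all tested genes, of which 6.13% were higher and 7.11% lower. With so large a share of all genes called and only 7 members tested, whether these counts set the group apart was not tested.

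**Figure D1:**
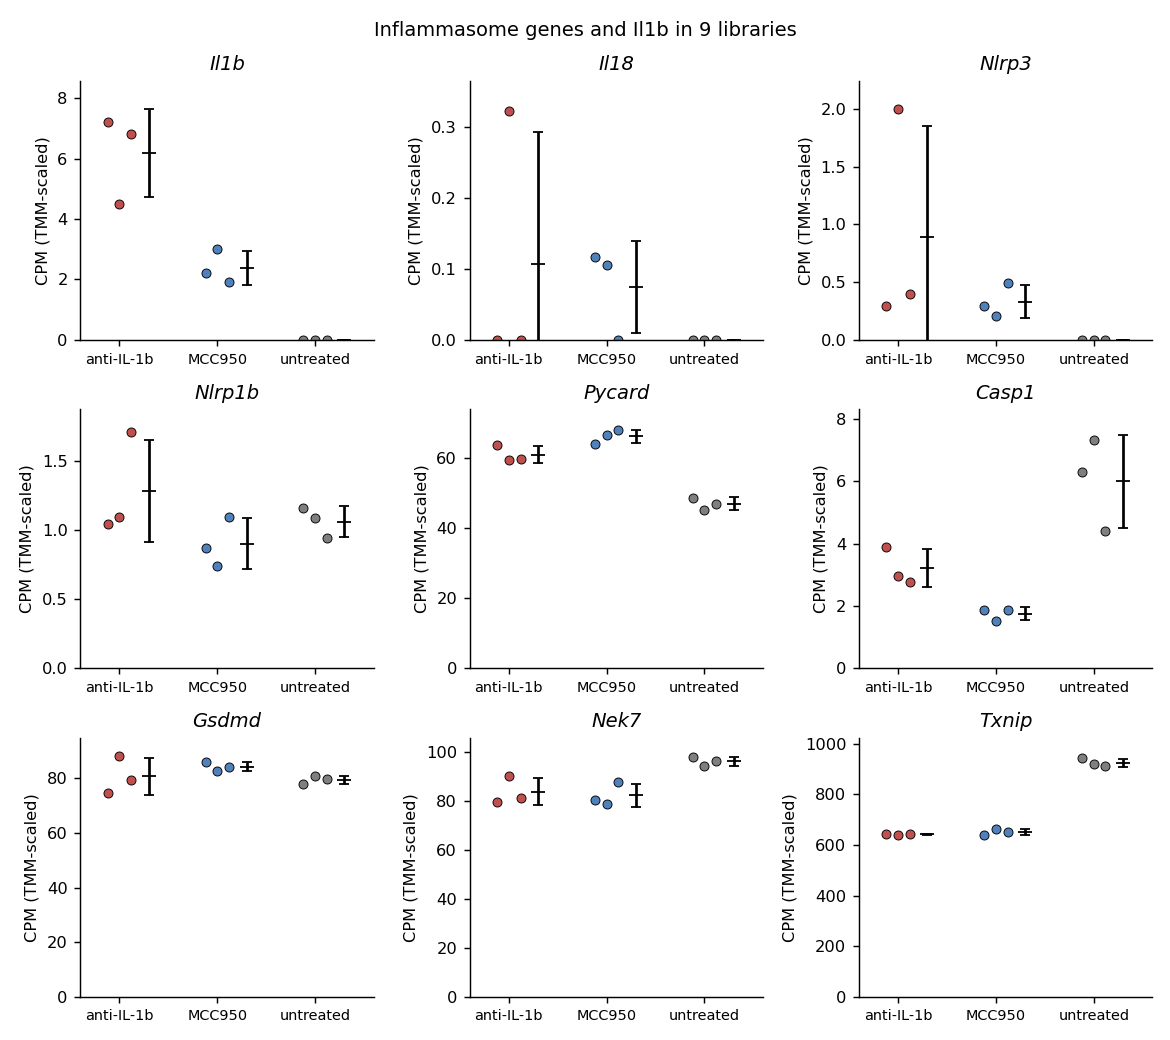
TMM-scaled CPM (vertical axes, each from 0) of the 9 genes in 3 anti-IL-1b, 3 MCC950 and 3 untreated libraries. Points are libraries and bars are mean ± SD, the bars of Il18 and Nlrp3 being cut at 0. Il1b lies at 4.51 to 7.22 with the antibody, 1.92 to 3.01 with MCC950 and 0 untreated, and Txnip lies highest in the untreated libraries.

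Il1b (ENSMUSG00000027398, chr2:129364570-129371139, minus strand, mm10), the gene of the cytokine that the antibody binds, was detected in every treated library and in no untreated one. It had 124, 70 and 104 counts in the anti-IL-1b libraries, 38, 57 and 35 counts in the MCC950 libraries, and 0 counts in each of the 3 untreated libraries. In scaled terms the levels were 7.22, 4.51 and 6.82 CPM in anti-IL-1b libraries, 2.22, 3.01 and 1.92 CPM with MCC950 and 0 untreated. The 3 groups do not overlap. Mean levels were 6.18 ± 1.46 CPM in the antibody group and 2.38 ± 0.564 CPM in the MCC950 group (SD, n = 3 each). A count of 0 over the untreated group allows up to 3 counts, or 0.0538 CPM, a limit that covers counting error only. Against it, Il1b was at least 115-fold higher with the antibody and at least 44.3-fold higher with MCC950. For the fitted fold changes, not these bounds, edgeR's quasi-likelihood test gave an adjusted p of 3.06e-14 with the antibody and 2.70e-11 with MCC950. Since Il1b entered the test through the treated libraries alone, its direction against untreated was fixed by the filter on low counts. These p-values therefore carry no information on direction. Set against MCC950, the antibody group had 2.59-fold more Il1b, or 1.37 ± 0.31 on the log2 scale (SE; adjusted p = 0.00205), and this call held in all 21 alternative settings.

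Il1b was a scarce mRNA in every group, ranked 9233 of the 13374 tested genes by mean CPM with the antibody and 10527 with MCC950. Between groups, its level ran in the same order as the sum of the neutrophil markers. Of the 19 neutrophil markers, 18 were detected with the antibody, 17 with MCC950 and 6 in untreated libraries, where 13 were at 0, among them S100a8, Ly6g, Camp and Retnlg. Of the 10 neutrophil markers that entered the test, 4 were at 0 in the untreated group and 8 had fewer than 10 counts in every untreated library, so these 8 entered through the treated libraries and their direction against untreated was largely fixed by the filter on low counts. Between the agents, 2 of the 10 passed as higher with the antibody than with MCC950, beside 6.13% of all tested genes. The CPM of Il1b equalled 18.5%, 11.8% and 18.1% of the summed CPM of the neutrophil list in the anti-IL-1b libraries and 11.5%, 14.1% and 10.2% in the MCC950 libraries, ranges that overlap. In the untreated libraries it was 0%, beside neutrophil sums of 1.34, 2.08 and 1.52 CPM. Within the antibody group Il1b was at 7.22, 4.51 and 6.82 CPM where the neutrophil sum was 39.0, 38.3 and 37.7 CPM. Among the 20 monocyte, macrophage and dendritic cell markers 12 were tested, of which 6 passed as higher and 1 as lower with the antibody, and 7 as higher with MCC950. Over all tested genes 15.4% were higher and 18.5% lower with the antibody, and 17.7% higher with MCC950. Of the 12 markers of these myeloid cells, 3 had fewer than 10 counts in every untreated library. The part of such cells in the Il1b result was not tested. In bulk libraries, fewer cells of a type and less RNA per cell cannot be told apart.

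Il18 (ENSMUSG00000039217, chr9:50554827-50581840, plus strand), the other cytokine that caspase-1 matures, was close to absent. It had 0, 5 and 0 counts with the antibody, 2, 2 and 0 counts with MCC950, and 0 counts in all 3 untreated libraries. Each group has at least 1 library without a read, so the groups overlap. With a filter of 1 count in total, which let it into the fit, edgeR's adjusted p was 0.256 with the antibody and 0.318 with MCC950, so no difference was detectable at this depth.

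Nlrp3 (ENSMUSG00000032691, chr11:59541568-59566956, plus strand), the sensor that MCC950 blocks, was likewise unseen in untreated cells. It had 5, 31 and 6 counts in the anti-IL-1b libraries, 5, 4 and 9 counts in the MCC950 libraries and 0 counts in each untreated library. Both treated groups therefore lie above the untreated one and overlap each other, and replicate 2 of the antibody group holds 31 of that group's 42 counts. Against the limit that 0 counts allow, Nlrp3 was at least 16.6-fold higher with the antibody, or at least 6.36-fold without replicate 2 of that group, and at least 6.17-fold higher with MCC950. With the filter of 1 count in total, under which 19.6% of 22899 genes were called with the antibody (9.04% higher, 10.6% lower), 21.3% with MCC950 (10.5% higher, 10.7% lower) and 7.69% between the agents (3.30% higher, 4.39% lower), edgeR's adjusted p of Nlrp3 was 3.50e-05 with the antibody, 0.00248 with MCC950 and 0.476 for the antibody against MCC950. Without replicate 2 of the antibody group the adjusted p with the antibody was 0.029, a setting chosen after the counts had been seen. With 0 counts in each untreated library, Nlrp3 entered these fits through the treated libraries alone. Its direction against untreated could therefore only be higher, and the p-values against untreated carry no information on direction. In the antibody group the neutrophil sum was 39.0, 38.3 and 37.7 CPM in replicates 1, 2 and 3. What sets replicate 2 apart in its Nlrp3 count was not tested.

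**Figure D2:**
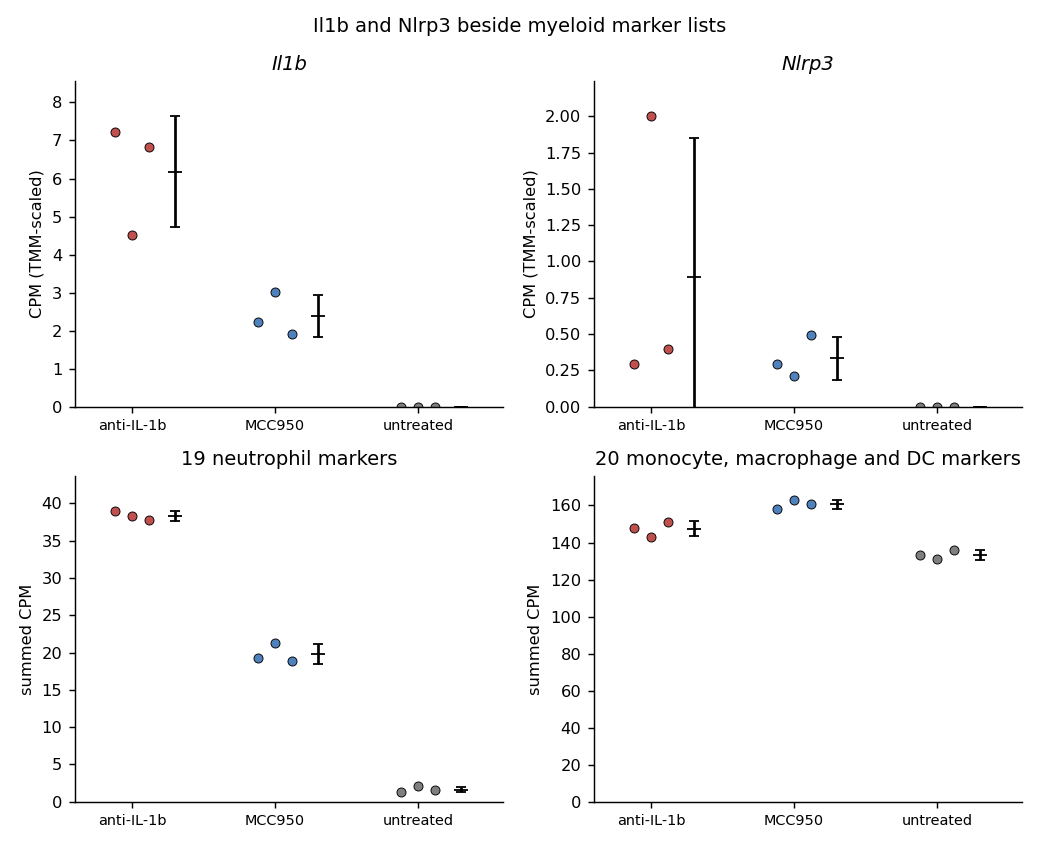
Il1b and Nlrp3 (upper panels, TMM-scaled CPM) beside the summed CPM of 19 neutrophil markers and of 20 monocyte, macrophage and dendritic cell (DC) markers (lower panels), in 3 anti-IL-1b, 3 MCC950 and 3 untreated libraries, all axes from 0. Points are libraries and bars are mean ± SD. The neutrophil sum runs in the same order of groups as Il1b, at 37.7 to 39.0 CPM in anti-IL-1b libraries, 18.8 to 21.3 with MCC950 and 1.34 to 2.08 untreated.

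Nlrp1b (ENSMUSG00000070390, chr11:71153102-71230733, minus strand) encodes a sensor known, in some mouse strains, for its response to anthrax lethal factor and to inhibitors of dipeptidyl peptidases. It was present at a low level in all 9 libraries. It had 18, 17 and 26 counts with the antibody, 15, 14 and 20 with MCC950 and 19, 22 and 18 untreated. At 1.05, 1.10 and 1.71 CPM in anti-IL-1b libraries, 0.875, 0.739 and 1.10 CPM with MCC950 and 1.16, 1.09 and 0.942 CPM untreated, all 3 groups overlap. The log2 fold change was 0.27 with the antibody (95% interval -0.75 to 1.29, adjusted p = 0.727) and -0.23 with MCC950 (-1.26 to 0.80, adjusted p = 0.768) by edgeR; at these counts the intervals are wide. Nlrp1b shares sequence with its neighbours Nlrp1a and Nlrp1c-ps, so the split of reads between them is uncertain. Nlrp1a had 5, 3 and 3 counts with the antibody, 1, 1 and 6 with MCC950 and 0 in each untreated library.

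Pycard (ENSMUSG00000030793, chr7:127989708-127993867, minus strand) encodes ASC, the adaptor that links sensor to caspase. It stood at 63.9, 59.6 and 59.8 CPM in anti-IL-1b libraries, 64.2, 66.6 and 68.0 CPM with MCC950 and 48.8, 45.2 and 47.1 CPM untreated. Every treated library lies above every untreated one. Pycard rose 1.30-fold with the antibody (log2 fold change 0.38 ± 0.06, adjusted p = 1.07e-05) and 1.41-fold with MCC950 (0.50 ± 0.06, adjusted p = 4.54e-08), by edgeR's test with SE. Between the agents it did not pass, at -0.12 (95% interval -0.25 to 0.01, adjusted p = 0.249). In TPM, RSEM's measure of transcripts adjusted for length, the levels were 117, 80.4 and 76.4 with the antibody, 103, 101 and 106 with MCC950 and 83.5, 74.1 and 66.5 untreated. On that scale the antibody and untreated groups overlap and the antibody call was lost, with a log2 fold change of 0.26 and an adjusted p of 0.21 by limma. The antisense gene Gm45205 overlaps Pycard, and a use of strand in the counting is not stated. Gm45205 held 80.0 counts over the 9 libraries, far below the 801.14 or more counts of Pycard in each library.

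Casp1 (ENSMUSG00000025888, chr9:5298517-5307265, plus strand), the protease of the complex, was the member with the largest measured fall. It had 67, 46 and 42 counts with the antibody, 32, 29 and 34 with MCC950 and 103, 148 and 84 untreated. Scaled, it was at 3.90, 2.97 and 2.76 CPM in anti-IL-1b libraries, 1.87, 1.53 and 1.87 CPM with MCC950 and 6.28, 7.32 and 4.39 CPM untreated. The 3 groups do not overlap on this scale, with MCC950 lowest and untreated highest. Casp1 fell 1.86-fold with the antibody (log2 fold change -0.90 ± 0.26, adjusted p = 0.00624) and 3.41-fold with MCC950 (-1.77 ± 0.27, adjusted p = 1.58e-06), by edgeR's test with SE. Between the agents it was 1.83-fold higher with the antibody than with MCC950 (0.87 ± 0.28, adjusted p = 0.0339). Between the agents Casp1 thus ran in the same direction as Il1b. Against untreated cells the direction of Il1b was fixed by the filter on low counts, so it is not set beside that of Casp1.

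The MCC950 result of Casp1 kept its call in all 21 alternative settings, whereas the other Casp1 calls did not. The antibody call was lost once untreated replicate 2 was left out, at -0.73 (edgeR, adjusted p = 0.0641). It was also lost on TPM, at 5.63, 3.25 and 2.62 with the antibody and 6.14, 7.0 and 4.05 untreated, groups that overlap (limma on log2(TPM + 1), -0.50, adjusted p = 0.176). The call between the agents was lost in 9 of the 21 settings. Among these were the fits that left out antibody replicate 1 (0.70, adjusted p = 0.16), antibody replicate 2 (0.93, 0.0514), MCC950 replicate 1 (0.92, 0.0691), MCC950 replicate 2 (0.78, 0.122) or MCC950 replicate 3 (0.92, 0.0668), by edgeR.

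Gsdmd (ENSMUSG00000022575, chr15:75862327-75867408, plus strand), which encodes the pore-forming gasdermin D, was measured at 74.5, 88.1 and 79.4 CPM in anti-IL-1b libraries, 85.8, 82.8 and 84.2 CPM with MCC950 and 77.9, 80.8 and 79.7 CPM untreated. The antibody libraries span the untreated ones, and the MCC950 libraries lie just above them. The log2 fold change was 0.02 with the antibody (95% interval -0.10 to 0.14, adjusted p = 0.829) and 0.08 with MCC950 (-0.03 to 0.20, adjusted p = 0.272), and -0.06 between the agents (-0.18 to 0.05, adjusted p = 0.554), by edgeR. These intervals leave out changes larger than a log2 fold change of 0.20 in either direction under TMM scaling. Scaling by library totals alone, which moves the median of all genes by 0.13 with the antibody and 0.11 with MCC950, gave 0.15 with the antibody (adjusted p = 0.0421) and 0.20 with MCC950 (adjusted p = 0.00545). On TPM Gsdmd was at 128, 147 and 137 with the antibody, 134, 115 and 129 with MCC950 and 108, 109 and 114 untreated, and it passed as higher with the antibody (limma, 0.31, adjusted p = 0.00919).

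Nek7 (ENSMUSG00000026393, chr1:138482875-138620141, minus strand), a kinase that NLRP3 needs in order to assemble, was at 79.6, 90.0 and 81.2 CPM in anti-IL-1b libraries, 80.3, 78.6 and 87.6 CPM with MCC950 and 97.8, 94.2 and 96.3 CPM untreated. Every untreated library lies above every treated one, by a small margin. Nek7 fell 1.15-fold with the antibody (log2 fold change -0.20 ± 0.06, adjusted p = 0.00463) and 1.17-fold with MCC950 (-0.23 ± 0.06, adjusted p = 0.00141), by edgeR's test with SE. The call depends on the scaling: with library totals alone the value was -0.07 (adjusted p = 0.315) with the antibody and -0.11 (adjusted p = 0.109) with MCC950. On TPM the antibody and untreated groups overlap, at 27.6, 31.3 and 28.7 with the antibody and 30.2, 31.3 and 30.0 untreated. Between the agents Nek7 did not pass, at 0.02 (95% interval -0.09 to 0.14, adjusted p = 0.859).

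Txnip (ENSMUSG00000038393, chr3:96557957-96561883, plus strand) encodes an inhibitor of thioredoxin and of glucose uptake that has been reported to bind NLRP3. It is the abundant member, ranked 163 of 13374 tested genes by mean CPM. Its levels were 643, 641 and 644 CPM in anti-IL-1b libraries, 641, 663 and 653 CPM with MCC950 and 944, 919 and 911 CPM untreated. The treated groups sit together, well below the untreated libraries. Txnip fell 1.44-fold with the antibody (log2 fold change -0.53 ± 0.03, adjusted p = 2.35e-19) and 1.42-fold with MCC950 (-0.50 ± 0.03, adjusted p = 8.55e-19), by edgeR's test with SE. Both calls held in all 21 alternative settings, although the size did not: the fold change ran from -0.54 to -0.23 with the antibody and from -0.51 to -0.21 with MCC950, smallest on TPM. Between the agents the difference was -0.02 (95% interval -0.08 to 0.03, adjusted p = 0.676), so any difference larger than a log2 fold change of 0.08 lies outside the interval. The antisense gene Gm15441 overlaps Txnip and held 98.2 counts over the 9 libraries, far below the 9809.98 or more counts of Txnip in each library.

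**Figure D3:**
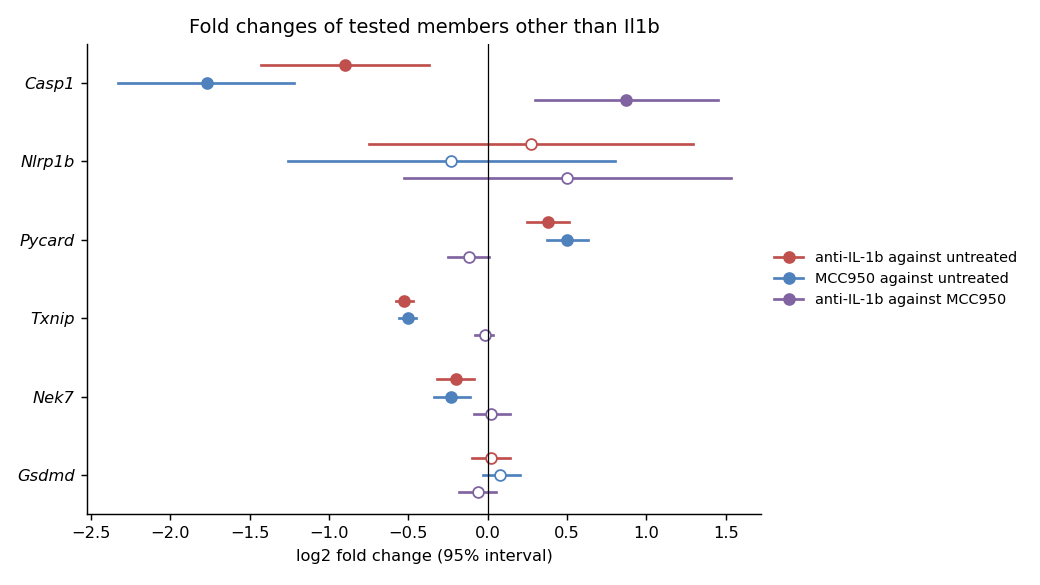
Log2 fold changes of 6 tested genes, Il1b left out because its untreated libraries are at 0 (horizontal axis, points with 95% intervals), for each agent against untreated and for the antibody against MCC950. Filled points passed an adjusted p of 0.05. Casp1 lies at -0.90 (anti-IL-1b) and -1.77 (MCC950) against untreated, and Pycard is the gene of the 6 with filled points right of 0 against untreated.

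Compared per length, in TPM, the order of the members was steady at the top. Txnip averaged 465 ± 23.0 TPM with the antibody, 470 ± 17.1 with MCC950 and 545 ± 16.4 untreated (SD, n = 3 each). Gsdmd, Pycard and Nek7 followed in that order in each group, with no overlap between the libraries of one gene and the next. Nek7, the fourth, averaged 29.2 ± 1.90 TPM with the antibody, 27.6 ± 1.14 with MCC950 and 30.5 ± 0.701 untreated. The fifth place differed: Il1b held it in both treated groups, at 8.57 ± 1.90 TPM with the antibody and 3.06 ± 0.777 TPM with MCC950, ahead of Casp1 at 3.83 ± 1.59 TPM with the antibody and 1.77 ± 0.270 TPM with MCC950, whereas in untreated libraries Casp1 held it, at 5.73 ± 1.52 TPM. Nlrp1b, Nlrp3 and Il18 were below 1 TPM in every library, and in the treated groups their neighbours in the order overlap.

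**Figure D4:**
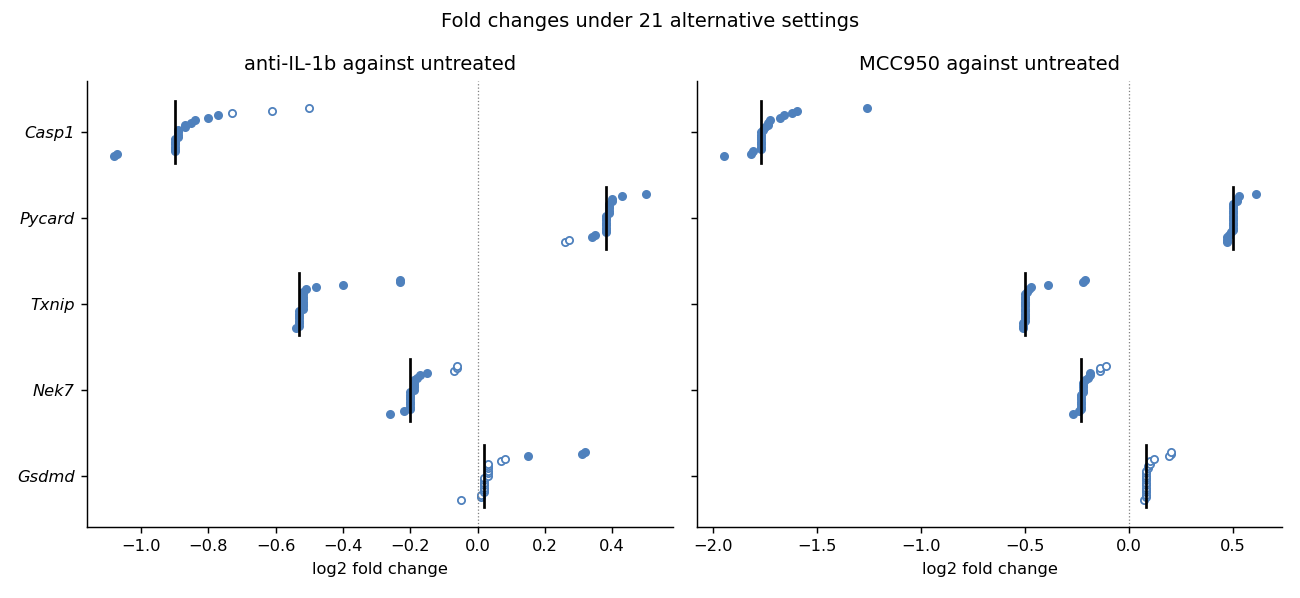
Log2 fold changes (horizontal axes, which differ between panels) of 5 genes for anti-IL-1b against untreated (left) and MCC950 against untreated (right) under 21 alternative settings (points), with the value given in the text as a vertical bar. Filled points passed an adjusted p of 0.05. All points of Txnip are filled, from -0.54 to -0.23 with the antibody and from -0.51 to -0.21 with MCC950, while those of Gsdmd and Nek7 are filled or open depending on the setting.

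Among 17 other sensors and relatives of the NLR and AIM2-like families, 9 were tested. With the antibody 2 rose and 3 fell, and with MCC950 2 rose and 3 fell, while library totals alone gave 2 higher and 2 lower with the antibody and 2 higher and 1 lower with MCC950. The median log2 fold change of this list was -0.05 with the antibody and -0.22 with MCC950. Of all tested genes, 34.0% were called with the antibody and 36.8% with MCC950. Aim2, the sensor of cytosolic DNA, was at 31.9, 34.9 and 34.3 CPM in anti-IL-1b libraries, 23.3, 25.4 and 24.7 CPM with MCC950 and 46.4, 46.5 and 46.5 CPM untreated. The 3 groups do not overlap and keep the order seen for Casp1. Aim2 fell by 0.46 on the log2 scale with the antibody (edgeR, adjusted p = 7.15e-06) and by 0.92 with MCC950 (adjusted p = 1.81e-12), and it was 0.46 higher with the antibody than with MCC950 (adjusted p = 8.09e-05), a call lost on TPM (0.33, adjusted p = 0.106). Nlrc4, the sensor that works with NAIP proteins, had 21, 16 and 25 counts with the antibody, 16, 37 and 28 with MCC950 and 44, 56 and 48 untreated. It fell with the antibody (-1.03, adjusted p = 0.0406), a call lost with upper-quartile scaling (adjusted p = 0.0515) and with library totals (adjusted p = 0.0676), and had a value of -0.84 with MCC950 (adjusted p = 0.0875). Its partner Naip2 was the other gene to fall with the antibody (-0.87, adjusted p = 0.00864).

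Nlrc5, a transactivator of MHC class I genes, rose by a log2 fold change of 0.30 with the antibody (edgeR, adjusted p = 1.17e-10) and 0.16 with MCC950 (adjusted p = 5.16e-05). Nlrc3, a restraining NLR of T cells, rose by 0.29 with the antibody (adjusted p = 4.28e-08) and 0.11 with MCC950 (adjusted p = 0.0166). With MCC950, Nod1, a sensor of bacterial cell walls, was lower (-0.28, adjusted p = 0.00538), as was Card6 (-0.22, adjusted p = 8.33e-05), though Card6 was higher on TPM (0.20, adjusted p = 0.0478) and both calls were lost with library totals. Between the agents 5 of the 9 passed, all higher with the antibody than with MCC950: Aim2, Nlrc3, Nlrc5, Nod1 and Card6, with a list median of 0.16, beside 13.2% of all tested genes called and 6.13% higher in that comparison, although Card6 was lower on TPM (-0.09). Naip2 and Nod1, and in the lists that follow Casp8, Hdac6, Dpp8, P2rx7, Myd88, Sigirr, Arrdc1, Arrdc4, Prdx1 and Hk1, were picked out for naming after their values had been seen.

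Among 12 other inflammatory and pyroptotic effectors 9 were tested, of which 1 rose and 2 fell with the antibody, and 2 rose and 4 fell with MCC950, with medians of -0.08 with the antibody and -0.34 with MCC950. The balance with the antibody depends on the scaling, at 2 higher and 0 lower both with upper-quartile scaling and with library totals, while with MCC950 each of these gave 2 higher and 3 lower. Of all tested genes, 34.0% were called with the antibody, 36.8% with MCC950 and 13.2% between the agents. Between the agents none of the 9 effectors passed by edgeR, DESeq2 or limma-voom, and 2 had an unadjusted p under 0.05 in edgeR. Casp4, the caspase that senses lipopolysaccharide in the cytosol and lies near Casp1, had 24, 11 and 21 counts with the antibody, 21, 11 and 11 with MCC950 and 39, 45 and 57 untreated. Both treated groups lie below the untreated one. Casp4 fell with MCC950 (-1.65, adjusted p = 0.004), while with the antibody its value was -1.12 (adjusted p = 0.0507). Ninj1, which ruptures the membrane of dying cells, fell by 0.52 with the antibody (adjusted p = 0.0368), a call lost with library totals (-0.40, adjusted p = 0.111), and by 0.72 with MCC950 (adjusted p = 0.00383). Ripk1, a kinase of cell death signalling, fell by 0.34 with MCC950 (adjusted p = 2.27e-04) and had -0.19 with the antibody (adjusted p = 0.033), where library totals gave -0.06 (adjusted p = 0.515). Fadd, the death-domain adaptor, rose by 0.50 with the antibody (adjusted p = 0.00346) and 0.35 with MCC950 (adjusted p = 0.0399). Casp8, an initiator caspase of cell death, was higher with MCC950 (0.13, edgeR, adjusted p = 0.0103).

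Of 25 listed regulators of NLRP3 and NLRP1, 22 were tested. With the antibody 2 rose (Hdac6 and Dpp8) and 5 fell, and with MCC950 2 rose (Nek6 and P2rx7) and 6 fell, with medians of -0.07 with the antibody and 0.03 with MCC950. Of the 22, 15 were not called with the antibody and 14 with MCC950. Over all tested genes 34.0% were called with the antibody and 36.8% with MCC950, so these counts do not set the list apart. The direction of this list depends on the scaling: with library totals alone 9 rose and 2 fell with the antibody, and 10 rose and 4 fell with MCC950. Ptpn22, a phosphatase of T cell receptor signalling that has been reported to act on NLRP3, fell by 0.25 with each agent (edgeR, adjusted p = 4.04e-05 with the antibody and 4.14e-05 with MCC950). Pkn2, of the kinases that restrain pyrin, fell by 0.26 with the antibody (adjusted p = 7.37e-05) and 0.28 with MCC950 (adjusted p = 2.64e-05), values that on TPM were 0.01 with the antibody and -0.10 with MCC950. Lrrc8a, a subunit of the volume-regulated anion channel, was lower with MCC950 (-0.36, adjusted p = 1.64e-05) and was the member of this list higher with the antibody than with MCC950 (0.22, adjusted p = 0.0193), while P2rx7, the receptor for extracellular ATP, was the member lower with the antibody than with MCC950 (-0.41, adjusted p = 0.00602). Cflar, a regulator of caspase-8, had -0.12 with the antibody (adjusted p = 0.0066), which became 0.00 with library totals and 0.14 on TPM, and -0.22 with MCC950 (adjusted p = 5.13e-06), which became 0.09 on TPM.

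Of the other ligands and antagonists of the IL-1 family, 9 listed, 5 were found in the tables by symbol and 1, Il18bp, was tested, without a call in any comparison by edgeR, DESeq2 or limma-voom and with an unadjusted p above 0.05 in each. Il1a, the other IL-1 agonist, had 11, 8 and 2 counts with the antibody, 6, 6 and 3 with MCC950 and 0, 1 and 0 untreated. Il1rn, the receptor antagonist, had 4, 8 and 2 counts with the antibody, 5, 4 and 1 with MCC950 and 0 in each untreated library. Like Il1b, both were seen mainly in treated libraries, at counts too low for the test. Of 18 receptor and adaptor genes of IL-1 and IL-18, 15 were tested: none rose and 5 fell with the antibody, and 1 rose (Sigirr) and 4 fell with MCC950, with medians of -0.11 with the antibody and -0.13 with MCC950. That is 5 of 15 called with each agent, a share close to the 34.0% of all tested genes called with the antibody and the 36.8% with MCC950. None rose with the antibody by DESeq2 or limma-voom either, and 2 were higher at an unadjusted p under 0.05 in edgeR. With library totals alone, 4 rose and 4 fell with the antibody, and 3 rose and 4 fell with MCC950.

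Il1r1, the signalling receptor for IL-1b, had 0, 0 and 4 counts with the antibody, 0, 7 and 0 with MCC950 and 0 untreated, so its level could not be compared. Il18r1, the chain of the IL-18 receptor that binds the cytokine, was at 74.3, 73.7 and 68.6 CPM in anti-IL-1b libraries, 69.9, 74.2 and 74.7 CPM with MCC950 and 89.1, 90.1 and 91.1 CPM untreated. All treated libraries lie below all untreated ones. Il18r1 fell by 0.32 with the antibody (edgeR, adjusted p = 1.62e-05) and 0.30 with MCC950 (adjusted p = 2.51e-05), calls lost on TPM (-0.13 with the antibody and -0.17 with MCC950). Irak3, a kinase relative that dampens the pathway, fell by 0.80 with the antibody (adjusted p = 4.32e-04) and 1.15 with MCC950 (adjusted p = 1.88e-06). Tab2, an adaptor of the kinase TAK1, fell by 0.37 with MCC950 (adjusted p = 7.48e-11), and its value of -0.17 with the antibody (adjusted p = 3.24e-04) became -0.04 with library totals and 0.08 on TPM. Traf6, the ubiquitin ligase of the pathway, fell by 0.30 with the antibody (adjusted p = 6.08e-05) and 0.26 with MCC950 (adjusted p = 3.95e-04). On TPM both Traf6 calls were lost (limma, adjusted p = 0.412 with the antibody and 0.132 with MCC950), as was the antibody call of Irak3 (-0.36, adjusted p = 0.152). Between the agents 2 of the 15 passed, beside 13.2% of all tested genes. Tab2 was 0.20 higher (edgeR, adjusted p = 1.22e-04) and Myd88, the shared adaptor, was lower (-0.20, adjusted p = 0.0183) with the antibody than with MCC950.

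**Figure D5:**
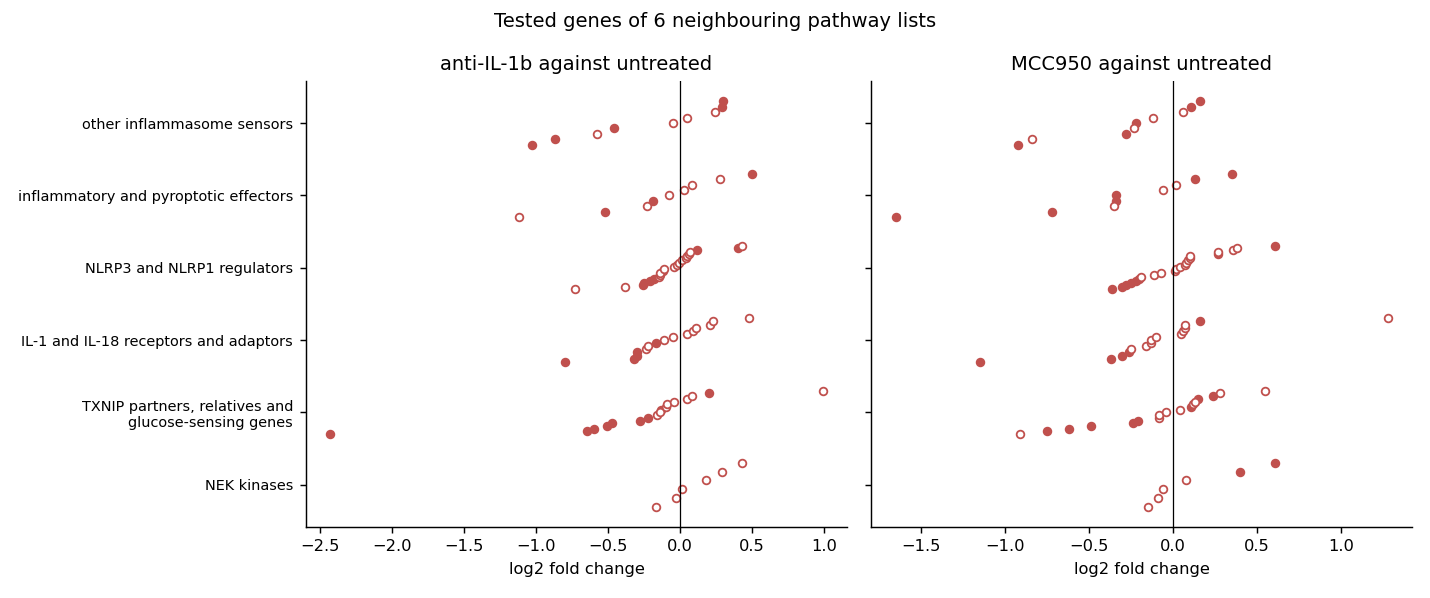
Log2 fold changes (horizontal axes, which differ between panels) of the tested genes of 6 neighbouring lists, for anti-IL-1b against untreated (left) and MCC950 against untreated (right). Each point is a gene, filled where the adjusted p was under 0.05. Filled points of the receptor list lie left of 0 with the antibody, 5 of 15, and those of the list around TXNIP lie mostly left with the antibody, 8 lower and 1 higher. Of all tested genes 15.4% were higher and 18.5% lower with the antibody.

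Of 18 genes around TXNIP (thioredoxins, other arrestin-like proteins, glucose transporters and glucose-sensing factors) 17 were tested. With the antibody 1 rose (Arrdc1) and 8 fell, and with MCC950 3 rose (Arrdc1, Prdx1 and Hk1) and 5 fell, with medians of -0.14 with the antibody and -0.04 with MCC950. With library totals alone 3 rose and 5 fell with the antibody, and 5 rose and 4 fell with MCC950. Under TMM scaling, 15.4% of all tested genes were higher and 18.5% lower with the antibody, and 17.7% higher and 19.1% lower with MCC950. The glucose transporter Slc2a1, whose protein TXNIP is known to draw into the cell, was at 34.0, 35.0 and 32.7 CPM in anti-IL-1b libraries, 33.5, 34.5 and 35.7 CPM with MCC950 and 49.0, 53.7 and 56.8 CPM untreated. As with Txnip, the treated groups sit together below the untreated one. Slc2a1 fell by 0.65 with the antibody (edgeR, adjusted p = 4.33e-09) and 0.62 with MCC950 (adjusted p = 8.58e-09), and Slc2a3, the neuronal-type transporter that T cells also use, by 0.60 with the antibody (adjusted p = 8.34e-10) and 0.49 with MCC950 (adjusted p = 4.79e-08). Arrdc3, an arrestin-like relative of TXNIP, fell by 0.47 with the antibody (adjusted p = 1.43e-04) and 0.75 with MCC950 (adjusted p = 3.46e-08). Ddit4, a stress-induced inhibitor of mTORC1, fell with the antibody (-0.51, adjusted p = 9.22e-12) and had -0.04 with MCC950 (adjusted p = 0.587), and the difference between the agents passed (-0.48, adjusted p = 5.48e-10). Arrdc4, which like TXNIP is induced by glucose, fell with the antibody (-2.43, adjusted p = 5.09e-05), a call lost on TPM, where the value was -0.56 (adjusted p = 0.095). Between the agents 2 of the 17 were higher and 5 lower with the antibody than with MCC950, beside 6.13% of all tested genes higher and 7.11% lower. Of the 10 other NEK kinases 6 were tested. With the antibody none passed by edgeR, DESeq2 or limma-voom, and 1 had an unadjusted p under 0.05 in edgeR, while Nek6 (0.61, adjusted p = 0.00648) and Nek8 (0.40, adjusted p = 0.0366) rose with MCC950, both calls being lost on TPM. With library totals alone 3 rose with each agent.

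Several of these list calls held in all 21 alternative settings. Those of Aim2, Nlrc5, Slc2a1, Slc2a3 and Arrdc3 did so with each agent against untreated libraries. Those of Nlrc3, Fadd, Ddit4, Myd88 and Arrdc1 did so with the antibody, those of Casp4, Irak3, Ptpn22, Tab2 and Prdx1 with MCC950, and those of Nlrc3, Ddit4 and Tab2 between the agents. Others rest on single libraries. With the antibody, the call was lost in 5 of the 9 fits that left out 1 library for Nlrc4 and Ninj1 (adjusted p up to 0.128 and 0.245), in 4 for Ripk1 and Dpp8, in 2 for Naip2 and in 1 for Cflar and Hdac6. With MCC950 it was lost in 5 of the 9 for Fadd and Nek8 (adjusted p up to 0.179 and 0.125), in 4 for P2rx7, Sigirr and Arrdc1, in 3 for Nlrc3 and Hk1, in 2 for Casp8 and in 1 for Nek6, Ninj1 and Nod1. Between the agents it was lost in 4 for Myd88, in 3 for Lrrc8a, in 2 for Card6 and in 1 for P2rx7. The remaining calls named here held in every such fit, although several were lost on TPM, among them those of Ptpn22 and Tab2 with the antibody, of Ripk1 and Lrrc8a with MCC950 and of Nlrc5 and Nod1 between the agents.

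Genes whose log2 CPM followed the members most closely over the 9 libraries were taken from the 9810 tested genes whose log2 CPM averaged 2 or more, by Pearson's r and with no test, since the points share their groups, depths and scaling. For Il1b they were 2010016I18Rik (r = 0.995), Macf1 (0.994) and Ddx17 (0.992). Genes as scarce as Il1b, the neutrophil markers Csf3r and S100a9 among them, averaged below that level and could not appear here. Txnip was most like Stk17b, Tob1 and Gpr183 (0.998 each). Pycard was most like Gimap3 (0.990), Tbc1d10c (0.986) and Igf2r (0.984), and Casp1 most like Maml2 (0.991), Kdm6a (0.972) and R3hdm2 (0.971). Genes like Nek7 included Taf4 (0.974) and Chrac1 (0.952). The closest genes were less close for Nlrp1b, with Pwwp2a (0.947), Vps26a (0.926) and Fam120c (0.914), and for Gsdmd, with Sept2 (0.900), Zfp456 (0.896) and Atraid (0.887). Between members, the computed pairs ran from r = -0.974 for Il1b and Txnip to 0.882 for Il1b and Pycard. The direction of Il1b against untreated libraries was fixed by the filter on low counts. Txnip and Nek7 had r = 0.848, and Txnip and Pycard r = -0.935.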

How the data were processed

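Samples were grouped by the labels' treatment alone. Per the submitters' processing notes the authors used STAR, RSEM and mm10, with versions not given there. Libraries were made with the NEBNext Ultra II Directional kit, per the labels' protocols. Per the file headers, each deposited expected count is an unnormalized RSEM estimate of a gene's reads. Per the same headers, the authors' TPM relates those reads to effective transcript length and library total. The lengths per gene are the authors' too, per the file headers. Symbols and coordinates came from GENCODE M21 (GRCm38, the same as mm10), in which 99.4% of the IDs have a symbol, and promoters from RefSeq GRCm38.p6.

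Expected counts were rounded and fitted with edgeR 4.0.16 in R 4.3.3 (TMM, filterByExpr, robust quasi-likelihood, 3 group means, 13374 genes, Benjamini-Hochberg). The test is two-sided and was tested on simulated counts. TMM factors were 1.031 to 1.035 with the antibody, 1.023 to 1.024 with MCC950 and 0.945 to 0.947 in untreated libraries. A common coefficient of biological variation of 0.0707 was estimated. Folds against a group at 0 use 3 counts over the group as a floor. Libraries of one group differed beyond sampling noise, with a chi-square per degree of freedom of 3.754 to 5.267. The 21 alternatives were other scalings and filters, DESeq2 1.42.0, limma 3.58.1 (voom, and trend on log2(TPM + 1) or log2(TPM + 0.1)), a replicate block, fits on the 6 libraries of a comparison, no robust option, and leaving out each library in turn.

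The members and lists were chosen with earlier results of these data known. Named were all members, up to 4 genes with the smallest p among those called in each list, Nlrc4, Aim2, Casp4, Il1a, Il1rn and Il1r1 as checks, up to 2 markers of each kind with the highest mean CPM (their lists are summarised by sums and counts instead) plus those named as at 0, and 3 genes most like each tested member. A few genes that this rule or the lists would name are not reported here.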

Additional observations from a re-analysis of the deposited data

How the results depend on the processing

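Of the 7 tested members, Il1b and Txnip kept their calls against untreated libraries in all 21 alternatives with each agent, as did Pycard and Casp1 with MCC950. For Il1b, at 0 in the untreated libraries, the direction was fixed by the filter on low counts. The TPM fits (limma-trend with either pseudocount) left 3 members called with the antibody against untreated, Il1b, Gsdmd and Txnip, in place of 5. With log2(TPM + 1), 3263 genes were called with MCC950 against untreated in place of 4921. Between the agents the TPM fits called 572 and 565 genes with pseudocounts of 1 and 0.1, in place of 1771. The number of members called between the agents was 1 with limma-voom, with both TPM fits and with the 6 libraries of the comparison alone, and 1 to 2 when 1 library was left out, since Casp1 missed the threshold there. The causes were not tested.

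Values that changed sign belong to Gsdmd and Nek7. For Gsdmd these were -0.05 with the antibody against untreated without antibody replicate 2 (-0.05 to 0.08 over all fits that left out 1 library), and 0.12 between the agents on TPM with each pseudocount. For Nek7 between the agents they were -0.03 without antibody replicate 2 and -0.01 without MCC950 replicate 2 (-0.03 to 0.07 over all fits that left out 1 library).

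The scaling moved the split of all calls. With the antibody 2066 genes were higher and 2479 lower under TMM, 2687 and 1941 with upper-quartile scaling, 3929 and 1344 with library totals, and 2645 and 865 on log2(TPM + 1). With MCC950 2369 were higher and 2552 lower under TMM, 2859 and 2211 with upper-quartile scaling, 4009 and 1587 with library totals, and 2169 and 1094 on log2(TPM + 1). Between the agents 820 were higher and 951 lower with the antibody under TMM, and 363 and 209 on log2(TPM + 1).

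With the replicate number as a block, 4483 genes and 5 members were called with the antibody against untreated, 4855 genes and 5 members with MCC950 against untreated, and 1704 genes and 2 members between the agents. Correlations of the deviations of same-numbered libraries ran from -0.097 to 0.142 over 9 pairs, and not every library correlated best with its own number, so they share only a number. Between the agents, Nlrp1b has values for 20 of the 21 alternatives, since 1 gave it no adjusted p. Il18, Nlrp3 and Nlrp1b are limited by counts.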
